A study of Mus musculus with 17 samples.

Results

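Kidney cortex of TRACK mice, a transgenic mouse model of kidney cancer, was compared with cortex of wild-type (WT) mice by mRNA sequencing. The comparison used 8 of the 17 libraries of the series, 3 from TRACK and 5 from WT mice. Its members were the autosomal protein-coding genes with a mean of at least 1 CPM (counts scaled to 1e6 per library) in TRACK or in WT, which were 12328 of 20455 such genes in a table of 48795 genes. The genes nearest above this limit were Rgs14, Scml4 and Zwilch (1.004, 1.009 and 1.009 CPM in the higher group), and those nearest below were Eno2, Pcdhb14 and Lyve1 (0.999, 0.999 and 0.998 CPM). TRACK mice are known to carry a constitutively active mutant of HIF1α under a γ-glutamyl transpeptidase promoter, which is used by proximal tubule cells. The labels name the model but not its transgene.

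The other groups of the series were used to place the TRACK values. GCERAd cortex (5 libraries, genotype ATF4 KO) came from Ggt-CreER; ATF4 fl/fl mice, in which a Cre enzyme under a Ggt1 promoter removes Atf4 from proximal tubule cells after tamoxifen. By the study's methods, these mice received tamoxifen on 2 days when 6 weeks old, and mice were fasted for 16 h before collection 1 month later. The remaining group (4 libraries, titled GCERAdT) is labelled TRACK-ATF4 KO. GCERAd mice carry no TRACK transgene by their labels, so a gene that moves the same way in TRACK and in GCERAd against WT is not specific to the transgene. The methods do not name the groups that were fasted, and the age, strain and tamoxifen treatment of the TRACK and WT mice are not given in the sources used here. The labels number the libraries within each group and do not state that each came from a separate mouse. Each library is called a mouse here. In whole cortex, fewer cells of a type and less RNA per cell cannot be told apart.

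HIF1 is a transcription factor made of an oxygen-regulated α subunit and a constant β subunit. With oxygen present, prolyl hydroxylases mark the α subunit, the VHL ubiquitin ligase binds it and it is degraded. When it is stable, HIF1 binds short DNA motifs with the core ACGTG and raises genes for glucose uptake, glycolysis, lactate export, pH control and blood vessel growth. Loss of VHL, and with it stable HIF, is the hallmark of clear cell renal carcinoma, a tumour of proximal tubule origin. The proximal tubule itself reabsorbs glucose, phosphate, amino acids and bicarbonate, oxidizes fatty acids, and makes glucose in fasting. ATF4 is the transcription factor of the integrated stress response, which raises amino acid synthesis and uptake.

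Library totals were 54444611 to 58709786 counts in TRACK and 53688512 to 66988264 in WT. Several features of the libraries moved with the groups. Xist, which is transcribed from an inactive X chromosome, had 147 to 415 CPM in WT and at most 0.0695 CPM in TRACK. The Y-linked gene Ddx3y was at 0 in every WT library and at 71.1 to 74.5 CPM in TRACK, and GCERAd and TRACK-ATF4 KO libraries had Ddx3y too. TRACK against WT and Y-bearing against Xist-expressing cortex therefore cannot be told apart from these libraries. The share of counts on processed pseudogenes, which take reads from their parent genes, was 0.0703 to 0.0784% in TRACK. It was 0.0327 to 0.0368% in 4 WT libraries and 0.0644% in WT mouse 2. GCERAd mice 1 and 2 had the low share (0.0329 and 0.0320%) and GCERAd mice 3 to 5 the high one (0.0574 to 0.0651%). The study's supplement lists sequenced samples with unequal base yields from similar read numbers, and it does not tie them to these titles. Whether the share follows a sequencing run or read length was not tested. List counts that moved with this share are also given with it as a covariate, or for the libraries above 0.05% alone (WT mouse 2 and GCERAd mice 3 to 5 against the TRACK mice, where the lone WT mouse is assumed to vary as the TRACK mice do). GCERAd mice 4 and 5 stood apart from GCERAd mice 1 to 3 in genes of gluconeogenesis and fatty acid oxidation. Mitochondrial genes took 11.6 to 12.3% of counts in TRACK, 12.4 to 16.3% in GCERAd and 17.1 to 19.1% in WT.

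TRACK cortex differed from WT cortex at 5352 of the 12328 genes (43.4%), 2671 higher and 2681 lower (21.7% and 21.7%), by edgeR's quasi-likelihood test at an adjusted p of at most 0.05. The change was at least 2-fold at 1104 genes, 663 higher and 441 lower. At 4697 called genes (38.1% of those tested) the TRACK and WT values did not overlap. The median log2 fold change (log2 FC) over all tested genes was -0.01. At 1428 called genes (11.6% of those tested) all 5 GCERAd values lay beyond the WT range on the side to which TRACK had moved, 724 higher and 704 lower (5.87% and 5.71%). By this flag these changes are not specific to the transgene. TRACK against GCERAd gave 2031 calls (16.5%), 1020 higher and 1011 lower. At 1355 genes (11%) TRACK differed from both WT and GCERAd in one direction, 730 higher and 625 lower (5.92% and 5.07%). These genes are referred to as higher or lower than both. Both flags held for 81 genes and neither for 2650 of the called genes. Of the genes that differed from both, 306 were at least 2-fold from each group, 232 higher and 74 lower. With the pseudogene share as covariate the calls fell to 1542 over WT and 163 from both, and in the libraries above 0.05% to 1301 and 334. The count from both was 644 without TRACK mouse 1, 621 without TRACK mouse 2 and 809 without TRACK mouse 3.

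Hif1a itself was at 109, 126 and 138 CPM in TRACK and at 80.0 to 93.2 CPM in WT (log2 FC 0.53 ± 0.09 (SE), adjusted p = 0.00104). The TRACK values lay above all WT values, and in GCERAd Hif1a was at 74.3 to 107 CPM (adjusted p = 0.0535 for TRACK over GCERAd). Whether reads of the transgene were counted here is not known, and the call was lost with the pseudogene share as covariate and in the libraries above 0.05% (adjusted p up to 0.134). Epas1, which encodes HIF2α, was at 188, 195 and 194 CPM against 126 to 146 CPM in WT (log2 FC 0.48 ± 0.07, adjusted p = 0.000491). Vhl had 20.7 to 23.7 CPM in TRACK and 15.9 to 23.9 CPM in WT, and the groups overlapped (adjusted p = 0.397). Atf4 overlapped as well, with 92.2, 79.0 and 76.3 CPM in TRACK against 78.7, 73.6, 81.2, 85.5 and 99.5 CPM in WT (log2 FC -0.02 ± 0.11, adjusted p = 0.889).

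**Figure D1:**
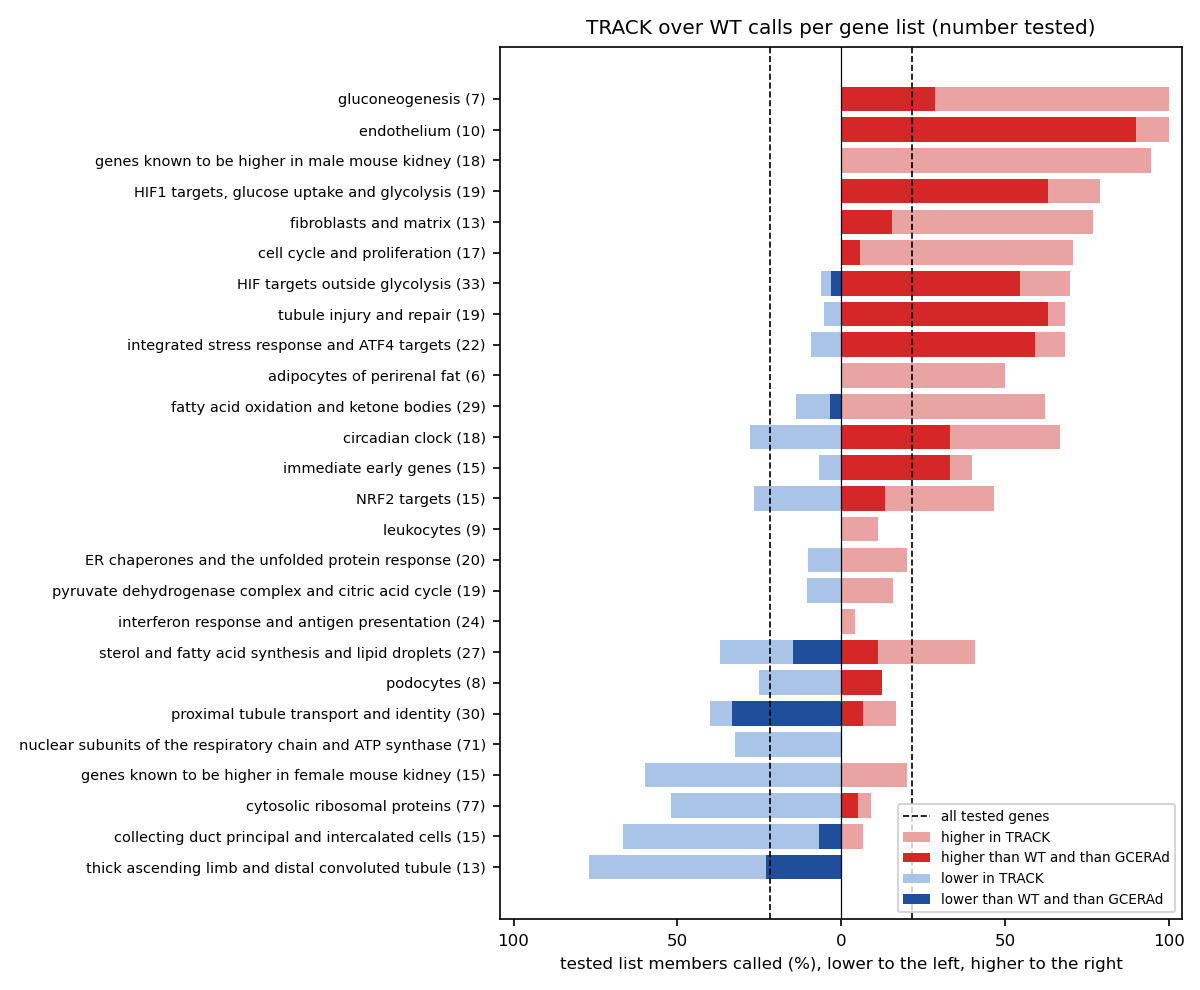
Share of the tested members of each gene list that passed the test in TRACK over WT (x axis, percent), lower to the left and higher to the right. The dark part of each bar marks members that also differed from GCERAd in that direction, and the dashed lines give the shares of all 12328 tested genes. The bars of HIF targets, ATF4 targets and endothelium are long and mostly dark, and the bar of genes known to be higher in male kidney is long with no dark part.

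Sequences upstream of HIF list and ATF4 list genes that rose were read from RefSeq (GRCm38.p6), because HIF1 and ATF4 each bind a known motif. The 250 bases before each start site were searched on both strands for ACGTG, for GCGTG and for TGATGNAA, the core of the C/EBP-ATF response element bound by ATF4, and overlapping matches were counted separately. ACGTG was in the promoter of 14 of the 23 HIF list genes higher than both that had a promoter in the reference (60.9%). It was in 6 of 16 tested HIF list genes that were not higher than both (37.5%) and in 24.9% of all tested genes with a promoter. Over all genes higher than both, in and outside the lists, the share was 25.7%. GCGTG, another form of the HIF core, was in 65.2% of the HIF list genes higher than both, 62.5% of those not higher than both and 49.6% of all tested genes. TGATGNAA was in 5 of the 11 ATF4 list genes higher than both with a promoter (45.5%), against 2.46% of all tested genes and 3.75% of all genes higher than both with one. Over all promoters of the reference, ACGTG was in 16.6% and TGATGNAA in 3.45% of windows of that length. A match describes letters in these windows and not a bound site, and the shares were not tested. The stretches below hold matches in capitals and are shown for the genes whose values follow. They read 5′ to 3′ on the strand of the gene.
Hk2, ACGTG, chr6:82774474-82774533, minus strand: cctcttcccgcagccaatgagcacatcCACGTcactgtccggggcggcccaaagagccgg
Slc16a3, ACGTG, chr11:120949034-120949063, plus strand: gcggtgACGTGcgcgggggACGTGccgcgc
Ldha, ACGTG, chr7:46845743-46845802, plus strand: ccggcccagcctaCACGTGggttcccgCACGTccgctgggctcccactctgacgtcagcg
Egln3, ACGTG, chr12:54204065-54204124, minus strand: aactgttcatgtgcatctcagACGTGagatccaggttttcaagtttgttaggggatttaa
Car9, ACGTG, chr4:43506995-43507024, plus strand: cctatttccgatgCACGTacagcccgtcca
Bnip3, ACGTG, chr7:138909581-138909640, minus strand: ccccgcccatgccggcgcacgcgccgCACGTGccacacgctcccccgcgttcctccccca
Asns, TGATGNAA, chr6:7693214-7693243, minus strand: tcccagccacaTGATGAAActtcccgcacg
Chac1, TGATGNAA, chr2:119351022-119351081, plus strand: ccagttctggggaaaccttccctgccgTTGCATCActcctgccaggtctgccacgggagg
Atf3, TGATGNAA, chr1:191183411-191183470, minus strand: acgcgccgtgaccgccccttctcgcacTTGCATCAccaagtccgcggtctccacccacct
Slc7a11, TGATGNAA, chr3:50443628-50443687, minus strand: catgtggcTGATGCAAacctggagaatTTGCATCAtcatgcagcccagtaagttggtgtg
Fgf21, TGATGNAA, chr7:45615597-45615656, minus strand: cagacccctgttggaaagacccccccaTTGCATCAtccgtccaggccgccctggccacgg
CACGT and TTGCATCA are the same motifs read on the other strand. The 60 bases around the matches of Car9, Slc16a3 and Asns overlap an annotated exon of the same gene, and 30 of them are shown. Whether the matches themselves lie in that exon was not examined.

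The glycolytic HIF1 targets rose as a group. Of 19 tested members 15 were higher in TRACK than in WT and none was lower, with a median log2 FC of 1.10, and 12 were higher than both. The list follows glucose from uptake to lactate export. Hk2 encodes the hexokinase that traps glucose in the cell (chromosome 6, 82725025 to 82774454, minus strand, GRCm38). Its level was 24.5, 19.8 and 6.70 CPM in TRACK, 0.267, 0.269, 0.318, 0.512 and 0.311 CPM in WT, and 0.0458, 1.04, 0.392, 0.682 and 0.692 CPM in GCERAd. All TRACK mice were far above both groups, and TRACK mouse 3 was the lowest of them (log2 FC over WT 5.66 ± 0.40, adjusted p = 4.84e-06). Slc16a3 encodes the monocarboxylate transporter MCT4, which carries lactate out of the cell (chromosome 11, 120948480 to 120960868, plus strand). It stood at 20.2, 19.8 and 14.5 CPM in TRACK, at 0.504, 0.556, 0.513, 0.219 and 0.754 CPM in WT, and at 0.311 to 0.535 CPM in GCERAd (log2 FC 5.14 ± 0.26, adjusted p = 6.54e-07). TRACK was far above WT and GCERAd, as it was for Pdk1, whose kinase closes the entry of pyruvate into the citric acid cycle. Pdk1 was at 286, 281 and 230 CPM in TRACK, 73.4, 66.7, 68.3, 75.7 and 66.9 CPM in WT and 33.5 to 73.8 CPM in GCERAd (log2 FC 1.92 ± 0.09, adjusted p = 3.51e-07).

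Enzymes along the pathway rose by smaller factors from higher levels. Gpi1, phosphoglucose isomerase, was at 1225, 1138 and 797 CPM in TRACK against 298 to 380 CPM in WT (log2 FC 1.59 ± 0.13, adjusted p = 1.43e-05). Pfkp, the platelet form of phosphofructokinase, was at 236, 223 and 169 CPM against 36.6 to 64.5 CPM in WT (log2 FC 2.08 ± 0.17, adjusted p = 1.03e-05). Ldha, the muscle form of lactate dehydrogenase, was at 1323, 1268 and 930 CPM in TRACK and at 408 to 431 CPM in WT (log2 FC 1.49 ± 0.10, adjusted p = 4.02e-06). No TRACK value of these genes reached down to WT, and the lowest TRACK value was from mouse 3 each time. Ldha in GCERAd was at 541 to 631 CPM, between WT and TRACK, so it carried both flags, as did Pfkfb3, which makes the activator of phosphofructokinase. Pkm, pyruvate kinase, was at 650, 620 and 477 CPM in TRACK against 221 to 319 CPM in WT (log2 FC 1.10 ± 0.13, adjusted p = 0.000141). Slc2a1, which encodes the glucose transporter GLUT1, was the exception at the entry of the pathway. It was at 72.1, 75.9 and 60.8 CPM in TRACK and overlapped WT at 51.7 to 70.3 CPM (adjusted p = 0.202), while GCERAd was lower at 32.4 to 41.1 CPM. With the pseudogene share as covariate 12 of the 19 members were called higher, and in the libraries above 0.05% there were 13.

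HIF targets outside glycolysis rose at 23 of 33 tested members and fell at 2, with a median log2 FC of 1.22, and 18 were higher than both. Ndufa4l2, a mitochondrial protein that lowers respiratory chain activity under hypoxia, was at 112, 100 and 46.8 CPM in TRACK. In WT it was at 2.48, 2.36, 2.83, 3.09 and 2.69 CPM and in GCERAd at 2.98 to 4.29 CPM, so the lowest TRACK mouse was far above every WT and GCERAd mouse (log2 FC over WT 5.00 ± 0.25, adjusted p = 5.77e-07). Egln3 encodes the prolyl hydroxylase PHD3, itself a HIF target that feeds back on HIFα. It was at 192, 185 and 105 CPM in TRACK, at 15.8, 16.4, 16.4, 14.1 and 15.1 CPM in WT and at 15.7 to 32.9 CPM in GCERAd (log2 FC 3.37 ± 0.17, adjusted p = 6.13e-07). Car9, the carbonic anhydrase CAIX used as a marker of clear cell renal carcinoma, was at 92.2, 86.6 and 45.1 CPM in TRACK and at 6.90, 4.98, 7.90, 10.0 and 9.54 CPM in WT (log2 FC 3.25 ± 0.25, adjusted p = 9.21e-06). GCERAd lay between them at 10.6 to 18.9 CPM, which gave Car9 both flags. Ddit4, an inhibitor of mTORC1, was at 116, 152 and 86.1 CPM against 13.4 to 18.8 CPM in WT (log2 FC 2.80 ± 0.17, adjusted p = 2.04e-06). Bnip3, a mitophagy receptor, was at 425, 397 and 333 CPM against 152 to 175 CPM in WT (log2 FC 1.22 ± 0.09, adjusted p = 4.70e-06).

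Enzymes that modify collagen formed a set within this list. Plod2, a lysyl hydroxylase, was at 123, 104 and 77.7 CPM in TRACK, at 24.9, 30.0, 28.3, 25.4 and 27.2 CPM in WT and at 23.3 to 38.0 CPM in GCERAd (log2 FC over WT 1.90 ± 0.13, adjusted p = 3.54e-06). P4ha2, the α2 subunit of prolyl 4-hydroxylase, was at 49.5, 46.0 and 38.8 CPM against 14.3 to 15.8 CPM in WT, with GCERAd between them at 18.5 to 23.5 CPM (log2 FC over WT 1.60 ± 0.08, adjusted p = 7.94e-07). TRACK stood above both groups for each of these enzymes, and so it did for P4ha1 (log2 FC over WT 1.16 ± 0.12, adjusted p = 4.79e-05) and Loxl2 (log2 FC over WT 1.44 ± 0.12, adjusted p = 1.51e-05). Cox4i2, a subunit of cytochrome c oxidase exchanged under hypoxia, was at 7.25, 6.39 and 2.44 CPM against 0.337 to 0.822 CPM in WT (log2 FC 3.17 ± 0.38, adjusted p = 0.000129). Ankrd37, a hypoxia-induced ankyrin repeat protein, was at 12.4, 10.6 and 6.24 CPM against 0.401 to 1.51 CPM in WT (log2 FC 3.41 ± 0.35, adjusted p = 5.00e-05).

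For some members TRACK mouse 3 was the highest. Lox, lysyl oxidase, which cross-links collagen, was at 15.0 and 16.3 CPM in TRACK mice 1 and 2 and at 40.4 CPM in mouse 3, against 3.05 to 5.51 CPM in WT (log2 FC 2.49 ± 0.30, adjusted p = 0.000159). Hmox1, haem oxygenase 1, was at 56.6, 52.5 and 111 CPM against 12.7 to 16.5 CPM in WT (log2 FC 2.37 ± 0.21, adjusted p = 2.19e-05). In the glycolytic genes described above mouse 3 was the lowest. Hmox1 was also at 18.7 to 58.2 CPM in GCERAd, on the TRACK side of WT, and it did not differ from GCERAd (adjusted p = 0.12). Vegfa, the vascular growth factor regarded as a prime HIF target, did not pass the test. Its values of 125, 117 and 90.2 CPM in TRACK overlapped 101, 96.7, 111, 126 and 148 CPM in WT (log2 FC -0.08 ± 0.15, adjusted p = 0.707). Ndrg1 (log2 FC -0.56 ± 0.10, adjusted p = 0.00133) and Car12 (log2 FC -0.65 ± 0.12, adjusted p = 0.00155) were the members that fell. With the covariate 17 of the 33 were higher than WT and 10 higher than both.

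The list of integrated stress response and ATF4 targets rose in TRACK while Atf4 itself did not pass the test. Of 22 tested members 15 were higher and 2 lower than WT, with a median log2 FC of 0.91, and 13 were higher than both. Asns, asparagine synthetase, was at 27.5, 22.2 and 15.7 CPM in TRACK, at 3.49, 2.21, 2.88, 1.55 and 2.18 CPM in WT and at 1.72 to 2.91 CPM in GCERAd. TRACK stood clear of both groups, which overlapped each other (log2 FC over WT 3.14 ± 0.24, adjusted p = 8.68e-06). Trib3, a pseudokinase that damps the stress response, was at 18.4, 15.7 and 12.1 CPM against 1.34, 1.13, 0.548, 1.15 and 0.869 CPM in WT (log2 FC 3.93 ± 0.25, adjusted p = 2.42e-06). Aldh18a1, which makes the precursor of proline, was at 35.0, 28.5 and 16.9 CPM against 3.44, 2.85, 2.07, 2.14 and 2.05 CPM in WT (log2 FC 3.41 ± 0.24, adjusted p = 4.76e-06). For these 3 genes TRACK mouse 1 was the highest and mouse 3 the lowest of the TRACK mice. Chac1, which degrades glutathione, was at 2.94, 3.30 and 3.47 CPM against 0.0983 to 0.513 CPM (log2 FC 3.57 ± 0.52, adjusted p = 0.000454). Mthfd2, a mitochondrial folate enzyme, was at 16.0, 15.8 and 9.55 CPM against 2.48 to 4.24 CPM (log2 FC 2.05 ± 0.21, adjusted p = 5.21e-05). Atf5, a related transcription factor, was at 73.9, 59.3 and 45.1 CPM against 18.2 to 21.4 CPM (log2 FC 1.59 ± 0.13, adjusted p = 1.24e-05).

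Amino acid transporters of this list were divided. Slc7a11, the cystine transporter, rose from 0.0164 to 0.673 CPM in WT to 2.27, 1.77 and 0.466 CPM in TRACK, and the ranges overlapped through WT mouse 2 and TRACK mouse 3 (log2 FC 2.95 ± 0.88, adjusted p = 0.0211). Slc3a2, the heavy chain that partners Slc7a11 at the membrane, fell to 164, 149 and 180 CPM from 219 to 266 CPM (log2 FC -0.59 ± 0.09, adjusted p = 0.000635). GCERAd had 147 to 198 CPM of Slc3a2 and did not differ from TRACK (adjusted p = 0.82). With the covariate 10 of the 22 members were higher than WT and 7 were higher than both. ER chaperones and other genes of the unfolded protein response, a neighbouring stress pathway, showed no such group change, with 4 of 20 higher, 2 lower and a median log2 FC of -0.01. NRF2 targets were mixed, with 7 of 15 higher and 4 lower, and 4 and 2 with the covariate. Nqo1, an NRF2 target that reduces quinones, was among the higher ones (log2 FC 0.90 ± 0.09, adjusted p = 5.72e-05).

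**Figure D2:**
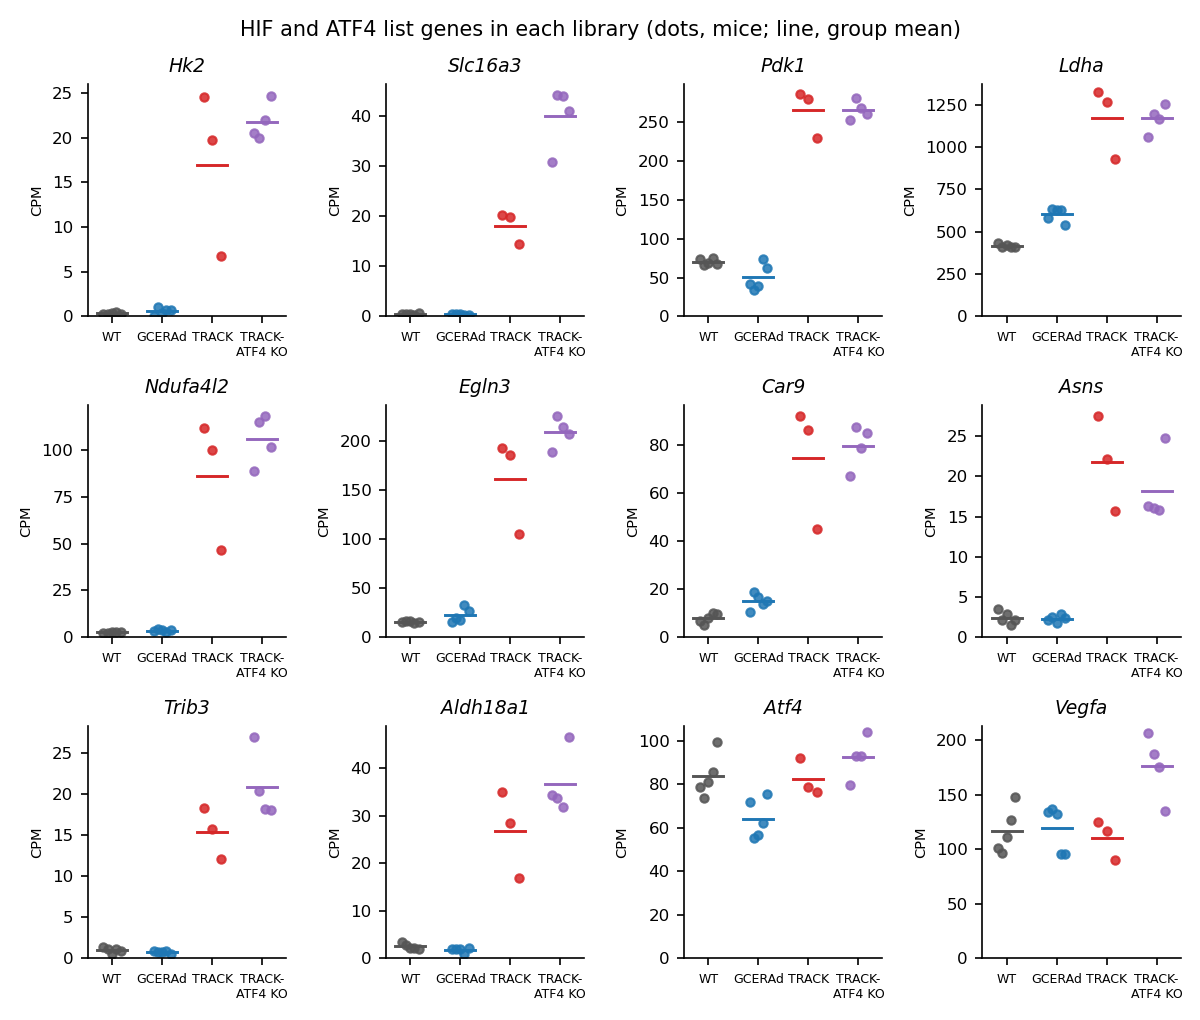
CPM (y axis) of HIF and ATF4 targets, Atf4 and Vegfa in each mouse of the WT, GCERAd, TRACK and TRACK-ATF4 KO groups (x axis). Points are mice and lines group means. Hk2, Slc16a3, Ndufa4l2, Asns and Trib3 are high in every TRACK and TRACK-ATF4 KO mouse and low in every WT and GCERAd mouse, while Atf4 and Vegfa overlap between TRACK and WT.

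Genes of proximal tubule transport and identity fell more often than they rose. Of 30 tested members 12 were lower, 5 higher and 13 not called, with a median log2 FC of -0.20, and 10 were lower than both. Their summed level was 12060.4 to 12991 CPM in TRACK, below 15014.5 to 16521.9 CPM in WT and 17870.7 to 20100.2 CPM in GCERAd, and none of the 30 was at 0. These levels fit the labelled tissue. Slc34a1 encodes NaPi-IIa, the main phosphate transporter of the brush border (chromosome 13, 55398187 to 55415592, plus strand). It was at 1146, 1177 and 814 CPM in TRACK, at 3062, 2680, 2765, 3130 and 3396 CPM in WT and at 2840 to 4891 CPM in GCERAd. The highest TRACK mouse was below every other mouse of those groups (log2 FC over WT -1.52 ± 0.13, adjusted p = 1.92e-05). Slc22a8, the basolateral organic anion transporter OAT3, was at 208, 195 and 123 CPM in TRACK, at 700, 609, 607, 646 and 684 CPM in WT and at 390 to 747 CPM in GCERAd (log2 FC -1.89 ± 0.16, adjusted p = 1.47e-05). Slc7a7, which carries cationic amino acids out of the cell on the blood side, was at 43.9, 50.6 and 69.0 CPM in TRACK, at 189, 187, 144, 192 and 182 CPM in WT and at 118 to 169 CPM in GCERAd (log2 FC -1.71 ± 0.15, adjusted p = 2.29e-05). TRACK overlapped neither WT nor GCERAd for either transporter, while WT and GCERAd overlapped each other.

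Slc6a19, the apical transporter of neutral amino acids, fell to 230, 228 and 262 CPM from 420 to 728 CPM in WT (log2 FC -1.29 ± 0.15, adjusted p = 0.000125). Lrp2, the endocytic receptor megalin, fell to 937, 1071 and 1119 CPM from 1349 to 2040 CPM (log2 FC -0.71 ± 0.14, adjusted p = 0.00236), and GCERAd at 1141 to 2085 CPM did not differ from TRACK (adjusted p = 0.0775). Hnf4a, the transcription factor that maintains the mature proximal tubule, changed little, with 710, 695 and 729 CPM in TRACK against 780 to 906 CPM in WT. That small fall passed the test against WT and GCERAd (log2 FC over WT -0.26 ± 0.07, adjusted p = 0.0119). Slc13a1, the sulphate transporter, rose to 417, 371 and 814 CPM from 216 to 330 CPM in WT, with mouse 3 well above the other TRACK mice (log2 FC 0.96 ± 0.24, adjusted p = 0.0088). With the pseudogene share as covariate 8 members were lower than WT and 1 was higher, and 6 were lower than both.

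Every tested gene of gluconeogenesis rose in TRACK over WT, 7 of 7 with a median log2 FC of 1.19. Of these, 2 were higher than both, and GCERAd mice 4 and 5 had high values too. Pck1, which encodes the rate-limiting phosphoenolpyruvate carboxykinase (chromosome 2, 173153048 to 173159273, plus strand), was at 8753, 8297 and 5488 CPM in TRACK and at 3046, 2753, 2700, 1825 and 2034 CPM in WT (log2 FC 1.60 ± 0.19, adjusted p = 0.000115, and 0.0687 with the covariate). GCERAd had 950, 1348 and 1215 CPM in mice 1 to 3 and 8480 and 8012 CPM in mice 4 and 5, and TRACK over GCERAd did not pass the test (adjusted p = 0.415). TRACK thus lay above WT and GCERAd mice 1 to 3, and its range took in GCERAd mice 4 and 5. Pcx, pyruvate carboxylase, was at 1511, 1353 and 1337 CPM in TRACK and at 471 to 529 CPM in WT (log2 FC 1.50 ± 0.07, adjusted p = 4.11e-07). Pck2, the mitochondrial form, was among those higher than both (log2 FC over WT 1.27 ± 0.12, adjusted p = 2.34e-05). With the covariate 5 of the 7 were higher than WT, and in the libraries above 0.05% 6 were. Against GCERAd mice 1 to 3 alone, all 7 genes were higher than both. GCERAd mice 4 and 5 were the ones high in these genes, so that count follows from leaving them out. Over all tested genes, those higher than both rose from 730 to 1432 in the same fit.

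Genes of fatty acid oxidation and ketone bodies rose at 18 of 29 members and fell at 4, with a median log2 FC of 0.38, and none was higher than both. Pdk4, a pyruvate dehydrogenase kinase raised in fasting, was at 362, 370 and 722 CPM against 27.5 to 46.7 CPM in WT (log2 FC 3.64 ± 0.26, adjusted p = 5.47e-06). GCERAd was divided again, with 9.35 to 17.1 CPM of Pdk4 in mice 1 to 3 and 218 and 233 CPM in mice 4 and 5. Without GCERAd mice 4 and 5, 15 of the 29 genes were higher than both. Those mice were the ones high in this list, so that count too follows from leaving them out. The part of the feeding state in these genes was not tested. With the pseudogene share as covariate 7 of the 29 were higher.

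Lipid genes changed in both directions. Over sterol and fatty acid synthesis and lipid droplets, 11 of 27 members were higher and 10 lower, with a median log2 FC of -0.19. With the covariate 7 were higher and 2 lower, and in the libraries above 0.05% 8 and 2. Plin2, which coats lipid droplets and is high in clear cell renal carcinoma, was at 518, 403 and 384 CPM in TRACK and at 68.8, 71.4, 71.3, 64.9 and 57.7 CPM in WT (log2 FC 2.70 ± 0.11, adjusted p = 1.62e-07). GCERAd mice 4 and 5 had 368 and 325 CPM and GCERAd mice 1 to 3 had 63.5 to 74.4 CPM, so this rise was not separated from GCERAd (adjusted p = 0.172). Acly, which makes cytosolic acetyl-CoA, was at 375, 382 and 281 CPM against 130 to 146 CPM in WT and was higher than both (log2 FC 1.35 ± 0.10, adjusted p = 5.93e-06). Scd1, the desaturase that makes monounsaturated fatty acids (chromosome 19, 44394455 to 44407879, minus strand), went the other way. It was at 115, 121 and 187 CPM in TRACK, at 881, 847, 1132, 1040.0 and 887 CPM in WT and at 192 to 356 CPM in GCERAd. The 3 ranges did not overlap, with TRACK lowest and WT highest (log2 FC over WT -2.76 ± 0.18, adjusted p = 3.26e-06, and over GCERAd -1.02, adjusted p = 0.019).

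Pyruvate dehydrogenase and citric acid cycle genes moved little. Of 19 members 3 were higher and 2 lower, with a median log2 FC of 0.02, and none differed from both. Nuclear subunits of the respiratory chain and ATP synthase were lower at 23 of 71 members and higher at none, with a median log2 FC of -0.15, and none differed from both. This was 32.4% of the list called, against 43.4% of all tested genes called and 21.7% called lower. In the same list 23 were lower with the covariate and 13 in the libraries above 0.05%, and the count was 15 without WT mouse 5 and 13 without TRACK mouse 3. Without WT mouse 2 there were 5 members higher, and without TRACK mouse 3 there was 1. The largest of these falls moved with the pseudogene share. Atp5l, a small ATP synthase subunit, was at 24.9, 26.5 and 26.1 CPM in TRACK and at 174, 175, 172 and 184 CPM in 4 WT mice (log2 FC -2.53 ± 0.42, adjusted p = 0.00102). WT mouse 2, with its high pseudogene share, had 39.8 CPM, GCERAd mice 1 and 2 had 144 and 138 CPM, and GCERAd mice 3 to 5 had 24.3 to 32.5 CPM. Cytosolic ribosomal proteins moved with it too. Of 77 tested members 40 were lower and 7 higher in TRACK over WT, and 2 were lower in the libraries above 0.05%. Rps29 was at 57.1, 65.3 and 71.1 CPM in TRACK, 83.0 CPM in WT mouse 2 and 222 to 260 CPM in the other WT mice (log2 FC -1.72 ± 0.32, adjusted p = 0.00177).

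Genes of tubule injury and repair rose at 13 of 19 tested members and fell at 1, with a median log2 FC of 0.63, and 12 were higher than both. Havcr1 encodes KIM-1, the receptor that injured proximal tubules put on their surface (chromosome 11, 46735080 to 46779578, plus strand). It was at 20.2, 12.1 and 21.5 CPM in TRACK, at 0.208, 0.185, 0.230, 0 and 0.475 CPM in WT and at 7.80, 1.71, 3.15, 0.811 and 0.571 CPM in GCERAd. All TRACK mice were above all WT and GCERAd mice, and all GCERAd mice were above all WT mice (log2 FC over WT 6.32 ± 0.47, adjusted p = 6.83e-06, and over GCERAd 2.67, adjusted p = 0.03). Krt20, a keratin of damaged tubules, was at 7.78, 2.87 and 3.02 CPM against 0.0183 to 0.328 CPM in WT (log2 FC 4.99 ± 0.61, adjusted p = 0.000164). Lcn2, the urinary injury marker NGAL, was at 6.98, 5.59 and 25.1 CPM against 1.63 to 3.66 CPM in WT, so TRACK mouse 3 stood apart (log2 FC 2.16 ± 0.44, adjusted p = 0.00299). Cdkn1a, the cell cycle inhibitor p21, was at 44.1, 38.2 and 36.3 CPM against 8.55 to 17.8 CPM in WT and was higher than both (log2 FC 1.50 ± 0.19, adjusted p = 0.000215). These counts depended on the libraries. With the pseudogene share as covariate 1 member was higher and in the libraries above 0.05% there were 4, and 7 of the 19 were higher than both without TRACK mouse 3.

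Endothelial markers rose together. All 10 were higher in TRACK than in WT, with a median log2 FC of 0.76, none had GCERAd on the same side, and 9 were higher than both. Flt1, the VEGF receptor 1 gene, was at 156, 171 and 152 CPM in TRACK, at 83.9, 74.8, 68.1, 83.7 and 89.6 CPM in WT and at 66.2 to 113 CPM in GCERAd (log2 FC over WT 1.00 ± 0.09, adjusted p = 3.05e-05). Pecam1, the adhesion molecule CD31, was at 121, 117 and 138 CPM in TRACK, at 70.3, 72.8, 59.9, 68.6 and 62.7 CPM in WT and at 58.2 to 82.3 CPM in GCERAd (log2 FC over WT 0.91 ± 0.09, adjusted p = 3.59e-05). For both genes the TRACK range lay above the other ranges. The summed level of the 10 markers was 1091.89 to 1266.83 CPM in TRACK, 651.422 to 748.243 CPM in WT and 583.51 to 824.822 CPM in GCERAd. With the covariate 9 were higher than WT and 1 higher than both, and 5 were higher than both without TRACK mouse 2 and 6 without TRACK mouse 3.

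Other cell types moved less evenly. Fibroblast and matrix genes were higher at 10 of 13 members with a median log2 FC of 0.99, of which 2 were higher than both and 2 of the 13 were called with the covariate. Dcn, the proteoglycan decorin, was at 108, 46.8 and 107 CPM in TRACK, at 15.9 to 29.6 CPM in WT and at 28.0 to 46.4 CPM in GCERAd, where TRACK mouse 2 came close (log2 FC over WT 1.88 ± 0.26, adjusted p = 0.000307). Leukocyte markers were called at 1 of 9 members and interferon and antigen presentation genes at 1 of 24, higher. The latter count was 4 without TRACK mouse 1, 3 without WT mouse 4, and 2 without WT mouse 2 or TRACK mouse 2. The leukocyte markers summed to 102.507 to 108.694 CPM in TRACK and to 102.361 to 117.169 CPM in WT. Podocyte markers were higher at 1 of 8 and lower at 2. Over all tested genes, 21.7% were higher and 21.7% lower, the shares beside which these list counts stand. Adipocyte markers were higher at 3 of 6. TRACK mouse 1 had 7.85 CPM of Adipoq, made by fat cells, against at most 0.0965 CPM in the other TRACK mice. Skeletal muscle markers summed to 0.677537 to 1.47927 CPM in TRACK and to 3.92774 to 11.4871 CPM in WT, and Myh1, a muscle myosin and the only one of them tested, was lower. Adrenal cortex markers summed to at most 1.47668 CPM in every group compared, and none was tested.

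Cell cycle genes were higher at 12 of 17 members and lower at none, with a median log2 FC of 0.64. Only 1 of the 17 was higher than both, where 5.92% of all tested genes were. The count of 12 fell to 0 with the covariate, and to 7 without TRACK mouse 1 or mouse 3. The member higher than both was Myc, a driver of growth. It was at 22.2, 22.3 and 17.8 CPM in TRACK, at 6.94, 8.64, 5.60, 3.62 and 2.56 CPM in WT and at 5.83 to 12.5 CPM in GCERAd, so the TRACK range lay above both (log2 FC over WT 1.92 ± 0.31, adjusted p = 0.000845, and 0.255 with the covariate). Mki67, which marks dividing cells, was at 1.87, 1.86 and 2.89 CPM against 0.905 to 1.46 CPM in WT (log2 FC 0.95 ± 0.28, adjusted p = 0.0197). GCERAd mice 1 to 3 had 2.58 to 3.00 CPM of Mki67. Immediate early genes were higher at 6 of 15 and lower at 1, and higher at 1 with the covariate and at 4 in the libraries above 0.05%.

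Markers of the later nephron segments fell, largely in GCERAd as well. Genes of the thick ascending limb and distal convoluted tubule were lower at 10 of 13 members and higher at none, with a median log2 FC of -0.79, and 4 of the 10 had GCERAd on the same side. Kcnj1, the potassium channel ROMK, was at 131, 151 and 161 CPM in TRACK, at 315, 326, 411, 349 and 393 CPM in WT and at 170 to 212 CPM in GCERAd (log2 FC over WT -1.28 ± 0.11, adjusted p = 1.78e-05). Slc12a3, the thiazide-sensitive cotransporter, was at 289, 218 and 335 CPM against 476 to 713 CPM in WT (log2 FC -1.04 ± 0.16, adjusted p = 0.00063). For both, most of the distance from WT was shared by GCERAd. Collecting duct genes were lower at 10 of 15 members and higher at 1, with a median log2 FC of -0.56, and 6 of the 10 had GCERAd on the same side. Aqp2, the vasopressin-regulated water channel, was at 188, 244 and 242 CPM in TRACK, 451 to 583 CPM in WT and 101 to 282 CPM in GCERAd, so TRACK lay inside the GCERAd range (log2 FC over WT -1.21 ± 0.12, adjusted p = 4.23e-05). In the libraries above 0.05%, 2 of the 13 and 3 of the 15 were lower, and with the covariate 3 and 4. The part of the cortex dissected and its share of medulla were not measured.

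Genes known to differ between the sexes in mouse kidney carried the flag of GCERAd on the same side most often. Of 18 tested genes known to be higher in male kidney, 17 were higher in TRACK, with a median log2 FC of 2.19. All 17 had GCERAd on the same side and none was higher than both. Acsm3, a medium-chain acyl-CoA synthetase, was at 1201, 1250 and 796 CPM in TRACK, at 7.08, 7.24, 3.30, 6.07 and 9.05 CPM in WT and at 789 to 1453 CPM in GCERAd (log2 FC over WT 7.37 ± 0.29, adjusted p = 1.62e-07). Slc7a13, an amino acid transporter of the last proximal segment, was at 315, 322 and 141 CPM in TRACK and at 0.0890 to 1.47 CPM in WT, while GCERAd exceeded TRACK at 324 to 1012 CPM (log2 FC over WT 8.40 ± 0.54, adjusted p = 2.79e-06). WT stood apart from both groups in these genes, as for Ddx3y, and 10 of the 18 were lower in TRACK than in GCERAd. Of 15 genes known to be higher in female kidney, 9 were lower in TRACK and 3 higher, and 8 of the 9 had GCERAd on the same side. Prlr, the prolactin receptor, was at 5.25, 4.33 and 43.6 CPM in TRACK, at 236 to 336 CPM in WT and at 22.8 to 39.6 CPM in GCERAd (log2 FC over WT -4.03 ± 0.73, adjusted p = 0.00158).

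The circadian clock genes changed in both directions, with 12 of 18 higher and 5 lower, and 12 of these 17 had GCERAd on the same side. None of the 5 lower calls held with the covariate or in the libraries above 0.05%, where 8 and 11 members were higher. Per2, a repressor of the clock that rises and falls daily, was at 33.1, 33.5 and 31.3 CPM in TRACK, at 7.91, 6.33, 7.14, 7.40 and 7.01 CPM in WT and at 18.0 to 22.8 CPM in GCERAd (log2 FC over WT 2.19 ± 0.08, adjusted p = 1.60e-07). Arntl, the activator BMAL1, moved the opposite way, with 2.25, 2.31 and 4.71 CPM in TRACK against 6.73 to 10.4 CPM in WT and 2.49 to 4.08 CPM in GCERAd (log2 FC over WT -1.58 ± 0.26, adjusted p = 0.000967, and 0.171 with the covariate). In TRACK-ATF4 KO, Per2 was at 4.05 to 6.81 CPM and Arntl at 14.0 to 20.1 CPM, on the WT side or beyond it. The time of day of collection is not given in the sources used here, so genotype and time of collection cannot be told apart for these genes. Cry1, another repressor, was higher than both at 7.23, 11.0 and 11.4 CPM against 2.33 to 3.65 CPM in WT (log2 FC 1.89 ± 0.20, adjusted p = 6.47e-05).

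**Figure D3:**
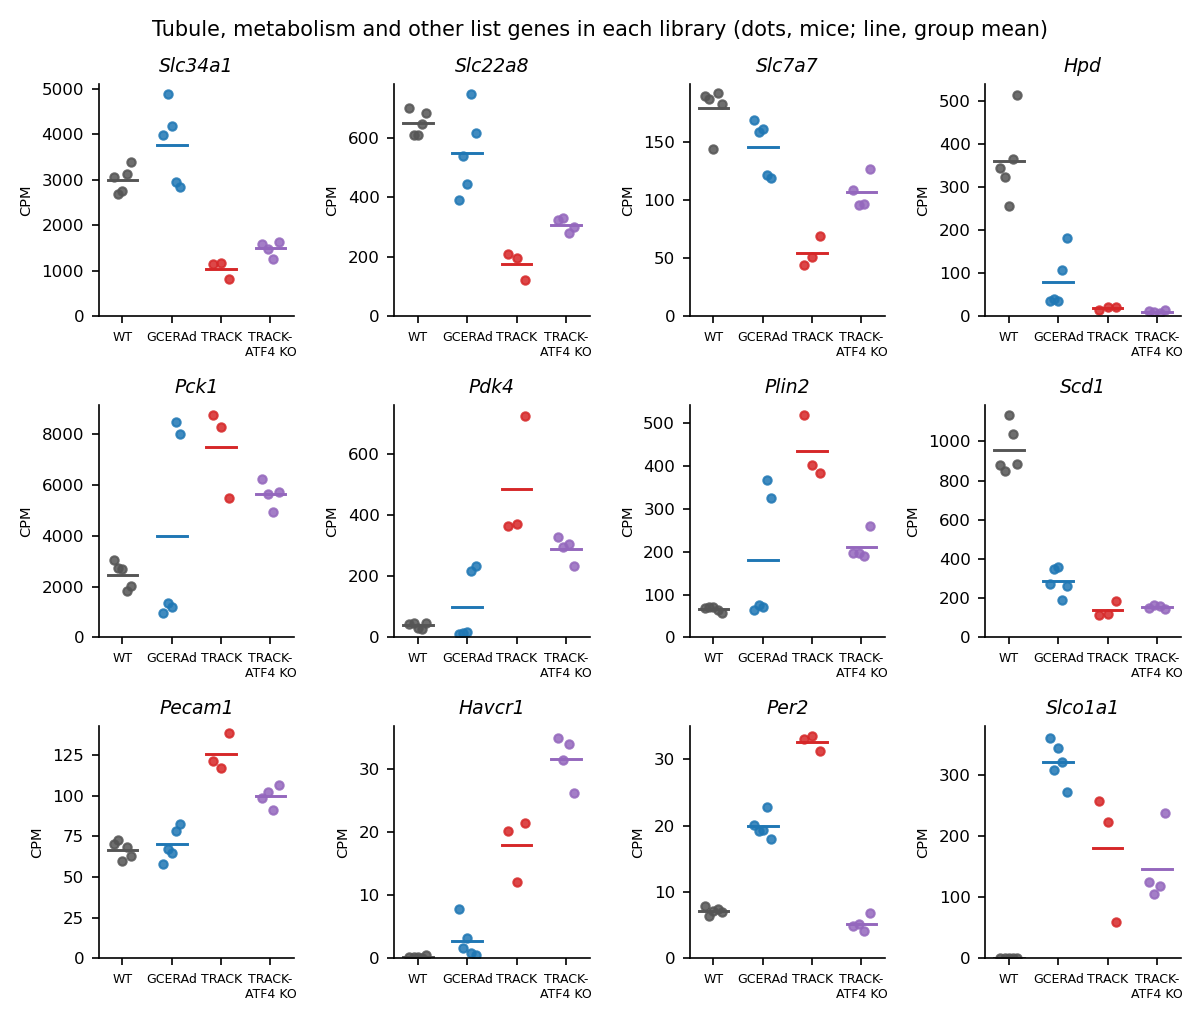
CPM (y axis) of transport, metabolic, vascular, injury, clock and sex-linked genes in each mouse of the WT, GCERAd, TRACK and TRACK-ATF4 KO groups (x axis). Points are mice and lines group means. Slc34a1 and Slc22a8 are lowest in TRACK, Pck1, Pdk4 and Plin2 divide the GCERAd mice into 3 low and 2 high, and Slco1a1 separates WT from the other groups.

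The genes farthest above both groups were ranked by fitted change among those whose TRACK and WT values did not overlap, and most were nearly silent in WT. Crisp1, Areg, Aox4 and Lactbl1 had no count in any WT library. Areg, an EGF receptor ligand, was at 3.38, 2.66 and 1.06 CPM in TRACK, at least 236-fold above a floor of 3 counts over the WT group. Crisp1, at 3.38, 3.72 and 0.0804 CPM, was at least 239-fold above it, although TRACK mouse 3 was near the floor. Mgarp, a mitochondrial protein known to respond to hypoxia, had 3 counts over all WT libraries and was at 15.9, 13.4 and 9.97 CPM in TRACK, a ratio of 1241 with a counting interval of 442 to 6279. Fgf21, the ATF4-regulated hormone, had 1 count in WT and was at 2.00, 0.799 and 0.772 CPM in TRACK, a ratio of 326 with an interval of 62.0 to 13858. The intervals cover counting error at 95% only. Better covered was 2610528A11Rik, at 65.5, 59.0 and 30.6 CPM against 0.193, 0.286, 0.0707, 0.128 and 0.147 CPM in WT and at most 0.147 CPM in GCERAd (log2 FC over WT 8.26 ± 0.32, adjusted p = 1.62e-07). Grin1, a subunit of the NMDA glutamate receptor, was at 18.5, 13.9 and 6.38 CPM against at most 0.0183 CPM in WT (log2 FC 9.70 ± 0.48, adjusted p = 5.89e-07). Muc2, a gel-forming mucin, and Aire, a transcription regulator of the thymus, completed the 10 largest increases.

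Among the genes lowest against both, Hpd fell farthest. It encodes 4-hydroxyphenylpyruvate dioxygenase of tyrosine breakdown and was at 13.7, 22.7 and 22.8 CPM in TRACK, at 345, 324, 257, 367 and 514 CPM in WT and at 36.3, 41.1, 34.8, 108 and 181 CPM in GCERAd (log2 FC over WT -4.20 ± 0.27, adjusted p = 2.68e-06). The groups fell in the order WT, GCERAd, TRACK without overlap. Cyp2c23, which makes epoxides of arachidonic acid, was at 7.98, 9.03 and 11.6 CPM in TRACK, at 80.0 to 91.4 CPM in WT and at 31.5 to 38.6 CPM in GCERAd, in the same order (log2 FC over WT -3.15 ± 0.13, adjusted p = 1.62e-07). Fam151a was at 12.5, 14.2 and 12.8 CPM against 75.1 to 105 CPM in WT and 53.3 to 167 CPM in GCERAd (log2 FC over WT -2.82 ± 0.13, adjusted p = 3.85e-07). Lrmda was at 0.981, 0.625 and 0.466 CPM in TRACK and at 4.06 to 5.13 CPM in WT, 3.80 to 5.71 CPM in GCERAd and 5.03 to 6.33 CPM in TRACK-ATF4 KO (log2 FC over WT -2.74 ± 0.27, adjusted p = 3.66e-05). It was thus low in the TRACK libraries and in no other group. The rest of the 10 were Wfdc16, Fgf10, Clec2h, Slitrk1, Tmc3 and Scd1.

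The largest changes shared with GCERAd and not separated from it in the direction of TRACK included genes of the sex-linked lists. Slco1a1, a sulphated steroid transporter, was at 257, 224 and 59.1 CPM in TRACK, at 0 in 4 WT mice and 0.0983 CPM in the fifth, and at 272 to 362 CPM in GCERAd. Ugt1a2, a glucuronosyltransferase, was at 0.818, 4.22 and 11.6 CPM in TRACK, at 561, 626, 533, 539 and 586 CPM in WT and at 1.12 to 11.8 CPM in GCERAd (log2 FC over WT -6.67 ± 0.69, adjusted p = 5.15e-05). Neighbouring Ugt1a genes share exons, so its counts depend on how shared reads were assigned. Igf2, a fetal growth factor, was at 3.27, 2.33 and 1.61 CPM in TRACK and 1.43 to 3.03 CPM in GCERAd, against 35.6, 38.1, 220, 35.8 and 24.3 CPM in WT (log2 FC over WT -4.88 ± 0.87, adjusted p = 0.00147, and 0.0731 with the covariate). WT stood alone for all 3 genes, and WT mouse 3 was the highest for Igf2. Cyp2b10, Cyp2j13, Slc7a13 and Mpped1 were the other leading increases, and Cox8b, Myh1 and Ccdc170 the other leading decreases.

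TRACK-ATF4 KO against GCERAd compares groups that are both labelled as ATF4 KO, in libraries that TRACK over WT does not use. It gave 2103 calls (17.1%), 935 higher and 1168 lower (7.58% and 9.47%). Of the 5352 genes called in TRACK over WT, 807 were called the same way here and 326 the opposite way. Of the 1355 genes that differed from both WT and GCERAd, 638 were called the same way here, 328 higher and 310 lower, and 8 the opposite way, but these share the GCERAd libraries with the flag. Of the 1347 genes flagged only for GCERAd on the same side, 33 were called the same way. Those genes were flagged with GCERAd already on the TRACK side and TRACK not called beyond it, so a low count follows largely from the flag. The glycolytic HIF1 targets were higher at 15 of 19 members, the other HIF targets at 21 of 33 and the ATF4 list at 14 of 22, and none of these lists had a member lower. Hk2 was at 20.6, 20.0, 22.0 and 24.7 CPM in TRACK-ATF4 KO, level with TRACK mice 1 and 2 (log2 FC over GCERAd 5.24 ± 0.46, adjusted p = 3.01e-05). Asns was at 16.3, 16.0, 15.9 and 24.7 CPM (log2 FC over GCERAd 2.94 ± 0.18, adjusted p = 3.05e-06). Atf4 was at 79.6, 93.1, 92.8 and 104 CPM against 71.9, 55.2, 56.7, 62.1 and 75.6 CPM in GCERAd, and at 73.6 to 99.5 CPM in WT (log2 FC over GCERAd 0.50 ± 0.12, adjusted p = 0.015). The Atf4 level of the group labelled TRACK-ATF4 KO was thus not below the WT range. The exons that were deleted were not examined here.

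The proximal tubule list was lower at 13 of 30 members in TRACK-ATF4 KO over GCERAd and higher at 1. Slc34a1 was at 1592, 1477, 1251 and 1644 CPM (log2 FC over GCERAd -1.36 ± 0.17, adjusted p = 0.000579). Endothelial markers were higher at 6 of 10 and injury genes at 9 of 19, with Havcr1 at 35.0, 31.4, 34.0 and 26.2 CPM (log2 FC over GCERAd 3.46 ± 0.61, adjusted p = 0.00346). Gluconeogenesis was higher at 1 of 7 members and lower at none, and fatty acid oxidation was higher at 1 of 29 and lower at 3. Thick ascending limb and distal convoluted tubule genes were higher at 1 of 13 and collecting duct genes at 2 of 15, with none lower. Over all tested genes 7.58% were higher and 9.47% lower in this contrast. Ribosomal proteins were higher at 32 of 77 and lower at none, the reverse of TRACK over WT. The processed pseudogene share was 0.0380 and 0.0362% in TRACK-ATF4 KO mice 1 and 2, and 0.0727 and 0.0726% in mice 3 and 4. GCERAd mice 3 to 5 had the high share, so the groups of this contrast were not balanced for it. Neither this contrast nor the interaction below was fitted with the share as covariate. By an interaction term over all 17 libraries, 3025 of 12328 genes differed in change between both contrasts, 2262 of them among the genes called in TRACK over WT.

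**Figure D4:**
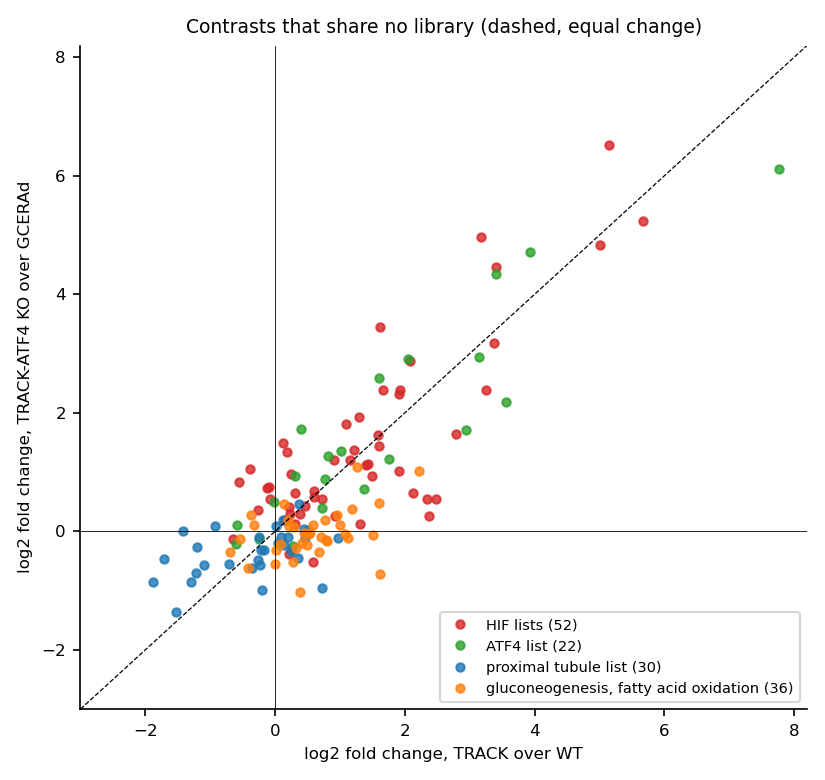
Log2 fold change of TRACK over WT (x axis) and of TRACK-ATF4 KO over GCERAd (y axis) for the tested members of the HIF lists, the ATF4 list, the proximal tubule list and the lists of gluconeogenesis and fatty acid oxidation. Each point is a gene, and the dashed line marks equal change. Hk2 (5.66 and 5.24) and Asns (3.14 and 2.94) lie near the line, and Pck1 (1.60 and 0.47) lies below it.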

How the data were processed

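The deposited values are whole-number read counts per gene for 17 mouse kidney cortex libraries. Per the labels, libraries were made with the TruSeq Stranded mRNA kit, demultiplexed with bcl2fastq 2.20, trimmed with Cutadapt, aligned to GRCm38 with STAR and counted with HTSeq. The annotation release, the strand setting and the treatment of reads that map to several places are not given in the sources used here. Multiply mapped or overlapping genes, such as small genes with many pseudogenes, are therefore uncertain. The labels name each library as a separate mouse, while the protocol text gives 3 to 4 mice per cohort. No library repeated another of its group within sampling noise, and p-values measure the spread between these libraries. That check cannot detect a mouse that was prepared and sequenced more than once. Some sample names in the study's supplement repeat another name with an added letter. Whether libraries of a group share a mouse was not tested.

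From the deposited counts, CPM were computed with TMM factors over the 13 WT, GCERAd and TRACK libraries (all 17 where TRACK-ATF4 KO entered). Genes of any type with a mean CPM of at least 1 in WT or TRACK (13719) were fitted with edgeR 4.0.16 (R 4.3.3), for 2 groups at a time as the study compared them, with a quasi-likelihood test. P-values were adjusted by Benjamini-Hochberg over all fitted genes and called at 0.05, and counts are given for autosomal protein-coding genes. Positions and gene types came from GENCODE M21, which lacked 360 of the table's identifiers. A called gene had GCERAd on the same side of WT when all 5 GCERAd values lay beyond the WT range on the TRACK side. It differed from both when TRACK also differed from GCERAd in that direction. In a permutation of 3 against 5 libraries the smallest exact p is 0.0357. In data simulated for TRACK over WT on 13719 genes, 42% of genes changed 1.5-fold, 82% changed 2-fold and 98% changed 4-fold were called, as were 10 unchanged genes.

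Genes were named by rule. From each list up to 4 called members of largest change and up to 2 of highest level were eligible, together with members whose role is described. To these came the 10 largest changes each way among genes that differed from both without overlap of TRACK and WT, the 5 largest each way among those flagged only for GCERAd, and genes that check the labels. Some members of these lists are not reported here by name. The members and gene lists were chosen with earlier results of these data known. Alternatives were DESeq2 1.42.0, RLE scaling, other limits on low values, 1 fit over all libraries, a replicate block, WT mice 1 and 2 summed, the pseudogene share as covariate, and each library left out. The fits restricted to libraries above 0.05% of processed pseudogenes and to GCERAd mice 1 to 3 were chosen after seeing the data.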

Additional observations from a re-analysis of the deposited data

Results flagged for a closer look

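Of 102 named genes, 55 changed by different amounts in TRACK over WT and in TRACK-ATF4 KO over GCERAd by the interaction term (adjusted p at most 0.05), 31 with the second change above the first and 24 below. Over all tested genes this held for 3025 of 12328 (24.5%). The named genes were chosen partly for large TRACK over WT changes, some of them shared with GCERAd, which makes such differences more frequent among them. Values are log2 differences of the second change minus the first. Among HIF targets the difference was 1.37 for Slc16a3, 0.79 for Pfkp, 0.72 for Pkm, 1.14 for Slc2a1, 1.79 for Cox4i2, 1.39 for Ndrg1 and 0.51 for Car12. It was below 0 for Ldha (-0.57), Pfkfb3 (-0.90), Hmox1 (-2.12) and Lox (-1.95), and for Hif1a (-0.49) and Epas1 (-0.56) themselves. In the ATF4 list it was 0.51 for Atf4, 0.99 for Atf5 and 0.69 for Slc3a2. The tubule transporters Slc22a8 (1.02), Slc7a7 (1.24), Kcnj1 (1.35) and Slc12a3 (0.98) had fallen further in TRACK over WT, and Slc13a1 differed by -1.08. Endothelial Flt1 and Pecam1 differed by -0.70 and -0.43, and decorin (Dcn) by -1.73.

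Genes of metabolism and injury differed as well. The difference was -2.51 for Plin2, -1.57 for Pcx, -0.98 for Acly and 1.84 for Scd1. It was -2.87 for Havcr1, -3.77 for Krt20 and 1.30 for Cdkn1a. The clock genes Per2, Cry1 and Arntl differed by -4.14, -1.60 and 3.87. In the following genes the WT values overlapped those of no other group. Slco1a1 was at -14.15, Cyp2j13 at -10.75, Cyp2b10 at -10.26, Slc7a13 at -9.30, Mpped1 at -8.51, Acsm3 at -7.44, Ugt1a2 at 7.63, Igf2 at 4.88, Ccdc170 at 4.41 and Prlr at 3.43. Fitted values of genes at or near 0 in WT depend on the prior count and are not bounds. Adipoq (-10.21) and Myh1 (8.44) mark fat and muscle, and Atp5l (2.65) and Rps29 (2.21) moved with the pseudogene share. Among the largest changes from both groups the difference was 2.00 for 2610528A11Rik, 2.23 for Clec2h, 2.52 for Wfdc16, 2.58 for Cyp2c23, 2.82 for Slitrk1, 2.94 for Lrmda and 3.14 for Fgf10.

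In 27 of 306 groups of 4 or 5 mice, 1 mouse lay apart from the rest by Dixon's test. Chance gives about 1 in 20 groups. The 306 include groups below 1 CPM in every mouse, which could not be flagged, so the 2 shares are not directly comparable. Of the 27 values, 10 were from TRACK-ATF4 KO mouse 4. That mouse had the highest value of its group at 282 CPM for Acly, 46.5 for Aldh18a1, 24.7 for Asns, 75.9 for Cdkn1a, 5.18 for Cyp2b10, 26.7 for Cyp2c23, 56.7 for Hmox1, 3.37 for Igf2, 260.2 for Plin2 and 237 for Slco1a1. TRACK-ATF4 KO mouse 1 was high for Slc13a1 at 425 CPM and mouse 3 low for Atf5 at 65.2 CPM. WT mouse 2 was low at 6.73 CPM for Arntl, 39.8 for Atp5l and 83.0 for Rps29. WT mouse 3 was high at 22.9 CPM for Ccdc170, 220 for Igf2 and 10.4 for Myh1 and low at 144 CPM for Slc7a7, and WT mouse 5 was high for Cry1 at 3.65 CPM. GCERAd mouse 5 was high at 50.3 CPM for Ddit4, 3.03 for Igf2 and 8.84 for Lox. GCERAd mouse 1 was high at 37.7 CPM for Pfkp and 11.8 for Ugt1a2, mouse 3 was high for Ankrd37 at 1.19 CPM, and mouse 4 was low for Aldh18a1 at 0.903 CPM.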

How the results depend on the processing

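All 3 TRACK libraries and 1 of 5 WT libraries had the high processed pseudogene share, so a covariate for it leaves few WT libraries to set against TRACK. With this covariate 1542 genes were called in TRACK over WT (856 higher, 686 lower), 1314 of them among the 5352, and 327 over GCERAd. GCERAd was on the same side at 504 genes, and 163 differed from both (89 higher, 74 lower). In the libraries above 0.05% the counts were 1301 (796 higher, 505 lower, so 61.2% of calls were higher), 914, 883 and 334 (209 higher, 125 lower). Against GCERAd mice 1 to 3 alone TRACK gave 4362 calls, and 2683 genes differed from both (1432 higher, 1251 lower). In 1 fit over all libraries TRACK over GCERAd gave 3183 calls. With WT mice 1 and 2 summed there were 5497 calls over WT. GCERAd was then on the same side at 1678 genes, and 1357 differed from both. The replicate numbers did not pair the libraries, with correlations of deviations from -0.15 to 0.04. The replicate block gave 3182 calls over WT (1669 higher, 1513 lower), 3638 over GCERAd, and 3604 for TRACK-ATF4 KO over GCERAd. Leaving out 1 library gave 3991 to 5769 calls over WT (2036 to 2858 higher, 1955 to 2911 lower), 863 (without TRACK mouse 2) to 2433 over GCERAd, 1151 to 1860 genes with GCERAd on the same side, and 621 (without TRACK mouse 2) to 1641 that differed from both (390 to 872 higher, 230 to 769 lower). TRACK-ATF4 KO over GCERAd then gave 1290 (without TRACK-ATF4 KO mouse 2) to 2174 calls. The counts over all genes under DESeq2, RLE scaling and other limits on low values were within 1.5 times the main ones. Some counts of lists were not, with 5 interferon genes higher and 4 gluconeogenesis genes higher than both under DESeq2, and 7 cell cycle genes higher at a mean of at least 5 CPM. Over 102 named genes, 27 lost the call with the covariate, among them Hif1a, Myc, Lox, Krt20, Lcn2, Cdkn1a, Chac1, Slc7a11, Lrp2, Hnf4a, Pck1, Igf2, Atp5l and Rps29, and 19 in the libraries above 0.05%. Slc7a11 lost it without TRACK mouse 1 or 2, Mki67 without TRACK mouse 3 and Hnf4a without TRACK mouse 2. Directions changed only for genes without a call in that fit. With the covariate log2 FC was 0.16 for Atf4, 0.23 for Vegfa, 0.022 for Rps29 and -0.11 for Adipoq. In the libraries above 0.05% it was 0.16 for Atf4 and 0.20 for Vegfa, and with the replicate block 0.080 and 0.090. Leaving out 1 library gave log2 FC of -0.11 to 0.049 for Atf4, above 0 without TRACK mouse 2 or 3 or WT mouse 5, and of -0.18 to 0.051 for Vegfa, above 0 without TRACK mouse 3 or WT mouse 5. Apart from these alternatives the cause of a change in count was not tested. For genes with at most 3 counts over the WT libraries, depth allows only a bound or a wide interval of the fold.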
